A study of Mus musculus with 2 samples.

Results

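Condensin and cohesin are ring-shaped protein complexes that hold or fold DNA, and 10 genes for their subunits were followed here in mouse erythroblasts that divide or begin to mature. The members were 8 condensin genes (Smc2, Smc4, Ncapd2, Ncapd3, Ncapg, Ncapg2, Ncaph and Ncaph2) and 2 cohesin genes (Smc1a and Smc3), chosen by gene symbol from a table of 25791 genes. All 10 had a row, and all 10 passed the filter for expression used below, an FPKM of at least 1 in at least 1 group, as did 9263 genes in all. FPKM is the number of sequenced fragments divided by transcript length and by library size, so levels of different genes can be compared.

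The cells were ESREs (Extensively Self Renewing Erythroblasts), immature red cell precursors kept in culture, from a C57/bl6 background. RNA was sequenced from proliferating cells, the expansion group, and from cells given 1 day of maturation, the maturation group. The series title speaks of transgenic β-Yac mice, but the sample labels list no transgene, and the sources used here do not say whether these cells carried one. Biological duplicates are mentioned in the design, but the table gives 1 value per gene and group. No difference below therefore has a replicate check, an SD or a p-value, and the depth behind the values is unknown.

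Condensin compacts and stiffens chromosomes for cell division by extruding loops of DNA. It is built on a pair of ATPase arms, SMC2 and SMC4, joined by a kleisin subunit and a pair of HEAT-repeat subunits. Condensin I (with NCAPH, NCAPD2 and NCAPG) reaches chromosomes after the nuclear envelope opens, and condensin II (with NCAPH2, NCAPD3 and NCAPG2) is nuclear throughout the cell cycle. Cohesin uses another pair of arms, SMC1A and SMC3, closed by the kleisin RAD21. It holds sister chromatids together from S phase to anaphase and forms interphase loops with CTCF. Maturing erythroblasts go on dividing for a few rounds while their chromatin condenses, before the nucleus is expelled.

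Many genes that peak in G2 and mitosis carry a promoter element called the CHR (cell cycle genes homology region), which is bound by the DREAM and MYB-MuvB complexes. It reads TTTGAA in its commonest form, with CTTGAA and TTCGAA among the known variants. After the condensin genes were seen to stand higher together, the promoters of the members were searched for these 3 words on both strands. The related lists below were not searched separately. Whether the words have a part in the differences was not tested. RefSeq promoters on GRCm38.p6 were used, each running from 250 bases before to 50 bases after a transcript start. An entry was found for 9 of the 10 members, all but Smc4. The 7 condensin genes with an entry have 8 entries between them, and 6 of these 8, each of a different gene, held at least 1 of the words. The entries of Smc1a and Smc3 held none. For comparison, 29.3% of all 32851 promoter entries held at least 1 of them, 17.9% held TTTGAA, 13.2% CTTGAA and 1.56% TTCGAA. The sites, except that of Ncapd3, are printed below in 30 bases each, 5′ to 3′ on the strand that reads as the word, with the word in capitals. The Ncapd3 word lay too near the end of its entry for its flanking bases to be printed.
Ncapg, chr5:45669883-45669912, plus strand: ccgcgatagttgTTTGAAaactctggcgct
Ncapg2, chr12:116405406-116405435, plus strand: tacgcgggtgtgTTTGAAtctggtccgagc
Ncaph2, chr15:89355685-89355714, plus strand: cttctttacttcTTCGAAactgggcccgcc
Ncapd2 near its start, chr6:125191596-125191625, minus strand: ttcctccgctagCTTGAAaaccatctcgtt
Ncapd2 farther upstream, chr6:125191692-125191721, minus strand: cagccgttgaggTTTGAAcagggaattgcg
Smc2 upstream, chr4:52439064-52439093, minus strand: agactataccgtTTTGAAcatggaaagcga
Smc2 after its start, chr4:52439235-52439264, minus strand: cggaactgttccTTTGAAtttcggcgcgag

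In Ncapg, Ncapg2, Ncaph2 and the nearer Ncapd2 site the word began 30, 18, 22 and 27 bases before the RefSeq start of that entry. It lay on the gene's own strand in Ncapg, Ncapg2 and Ncapd2, while TTCGAA in Ncaph2 reads the same on both strands. Other RefSeq transcripts of Ncapd2, Ncapg and Ncapg2 begin 514, 34 and 85 bases farther upstream. The farther Ncapd2 word began 123 bases before the start of the same entry. The Smc2 words lay on the other strand, 145 bases before and 27 bases after the start. GENCODE M21 places the Ncapg2 word, the nearer Ncapd2 word and the Smc2 word after its start inside an exon of some transcript of the gene, and the other 4 outside exons of their own gene. Ncapd3 has 2 entries, and only the one for an internal start held a TTTGAA, 249 bases upstream. Ncaph had none of the words. The CCAAT word is the core of the NF-Y box that often accompanies a CHR. It was found in 3 of the 8 condensin entries, those of Smc2, Ncapd2 and Ncapg. This share is about the same as the 37.4% of all entries that held the word. Smc1a held it as well. A search for 3 words of the E2F type, TTTGGCGC, TTTCGCGC and TTTCCCGC, found at least 1 in 1.84% of all entries. They occurred in Ncapd2 (TTTGGCGC, 8 bases before the start), in Ncapg and Ncapg2 (TTTCCCGC) and in Smc1a (TTTCCCGC). A match of this kind is a description of letters, not a bound site.

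All 8 condensin genes had a higher FPKM after 1 day of maturation than in expansion, whereas of the cohesin pair Smc1a was lower and Smc3 was close to its expansion level. Of all 9263 expressed genes, 2397 had a higher FPKM in maturation. The 8 condensin genes together summed to 47.9 FPKM in expansion and 74.4 in maturation, 1.55-fold. Smc1a and Smc3 together summed to 16.4 and 14.9 FPKM, 0.906 of the expansion value. The largest folds were those of Ncapg2 (2.17-fold), Smc2 (2.005-fold) and Smc4 (1.82-fold). In bulk RNA, a larger proportion of cells that express a gene and more of its RNA per cell cannot be told apart.

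**Figure D1:**
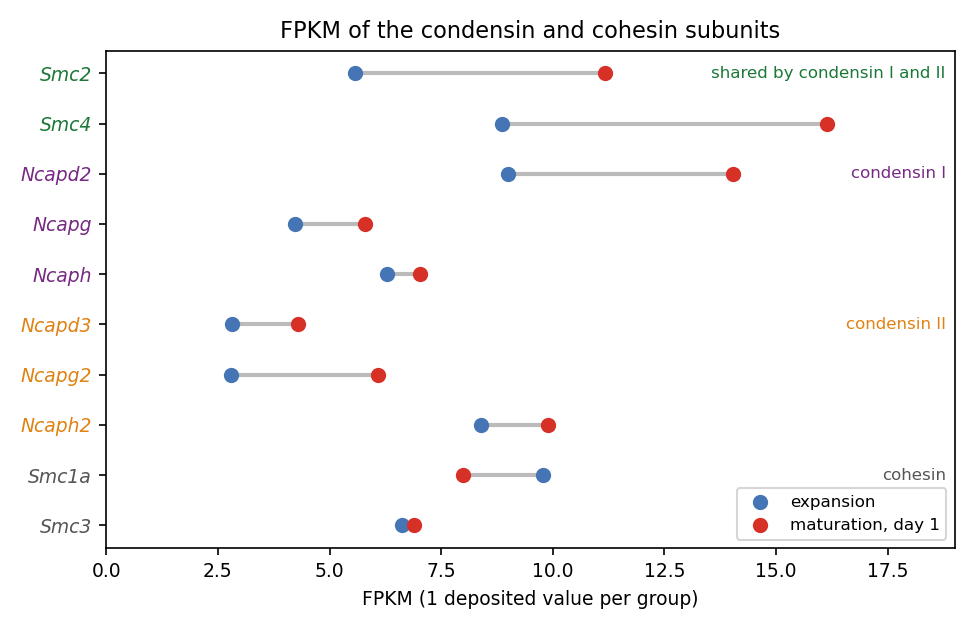
FPKM (x axis) of each subunit gene (y axis) in expansion (blue) and in maturation (red), 1 deposited value per group, with a grey line joining the 2 values. All 8 condensin genes have the red point to the right of the blue one, and Smc1a is the 1 gene with the reverse order.

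The SMC arms that both condensins share were each close to 2-fold higher in maturation. Smc2 (mm9 chromosome 4, 52452121 to 52501132) had 5.57 FPKM in expansion against 11.2 in maturation. Smc4 (chromosome 3, 68808894 to 68838545) was at 8.86 and 16.1 FPKM, the highest maturation value of the 10 members. From here on, log2 differences and counts past a fold use the log2(FPKM + 1) scale, which damps the noise of low values. Folds and proportions are plain ratios of FPKM. On the log2(FPKM + 1) scale Smc2 differed by 0.89 and Smc4 by 0.80. These differences exceeded those of 96.4% and 95.8% of the 9263 expressed genes. The pair kept a similar proportion, with Smc4 at 1.59 times Smc2 in expansion and 1.45 times in maturation. Smc4 shares its listed locus with the microRNA genes Mir15b and Mir16-2, which lie inside it and were listed at 0 in both groups.

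The condensin I genes were each higher, by unequal amounts. Ncapd2, a HEAT-repeat subunit (chromosome 6, 125118025 to 125141604), had 8.99 FPKM in expansion against 14.0 in maturation (1.56-fold, log2 difference 0.59). Ncapg, the other HEAT-repeat subunit (chromosome 5, 46061164 to 46248779), was at 4.22 and 5.79 FPKM (1.37-fold, log2 difference 0.38). Ncaph, the kleisin that closes the condensin I ring (chromosome 2, 126929545 to 126959690), was at 6.28 and 7.04 FPKM (1.12-fold, log2 difference 0.14). The kleisin thus had the smallest fold of the condensin I genes and of all 8 condensin genes. Scarna10, a small RNA gene inside the listed locus of Ncapd2, was at 19.6 and 133 FPKM, and how fragments were divided between that pair was not tested. The locus of Ncapg spans 187616 bases in the table and is shared with its neighbour Lcorl and with Gm3414 and LOC100503788. Each of these neighbours was under 1 FPKM in both groups.

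The condensin II genes were also each higher, again with the smallest fold for the kleisin. Ncapg2 (chromosome 12, 117643875 to 117702004) had 2.80 FPKM in expansion, the lowest value of the 10 members, and 6.08 in maturation (log2 difference 0.90, the highest of the 10). Ncapd3 (chromosome 9, 26837760 to 26902900) was at 2.82 and 4.29 FPKM (1.52-fold, log2 difference 0.47). Both of these HEAT-repeat genes thus started at the same low level and were 1.42 times apart in maturation. Ncaph2, the condensin II kleisin (chromosome 15, 89186153 to 89207467), was at 8.38 and 9.89 FPKM (1.18-fold, log2 difference 0.21). The listed locus of Ncaph2 is shared with Sco2, Tymp and LOC100502740, and Sco2 had the opposite order of values, at 2.87 and 0.826 FPKM. The sources used here do not say whether the libraries kept strand information, and fragments of genes that overlap in such loci may be divided among them with some error.

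The balance between condensin I and condensin II was nearly the same in both groups when summed, but 1 pair of matching subunits changed places. The condensin I subunits held 58.2% of the summed FPKM of the 6 complex-specific genes in expansion and 57.0% in maturation. This share does not depend on how a library is scaled, since both terms come from the same library. Ncapd2 held 76.1% of the sum of Ncapd2 and Ncapd3 in expansion and 76.6% in maturation. Ncaph held 42.8% and 41.6% of the sum with Ncaph2, so the kleisin of condensin II was the higher one in both groups. Ncapg held 60.1% of the sum with Ncapg2 in expansion and 48.8% in maturation, which left the condensin II gene slightly above its partner. The share of condensin I therefore ranged from 41.6% to 76.6% in maturation depending on the pair read, and RNA levels do not give the amounts of assembled complex.

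**Figure D2:**
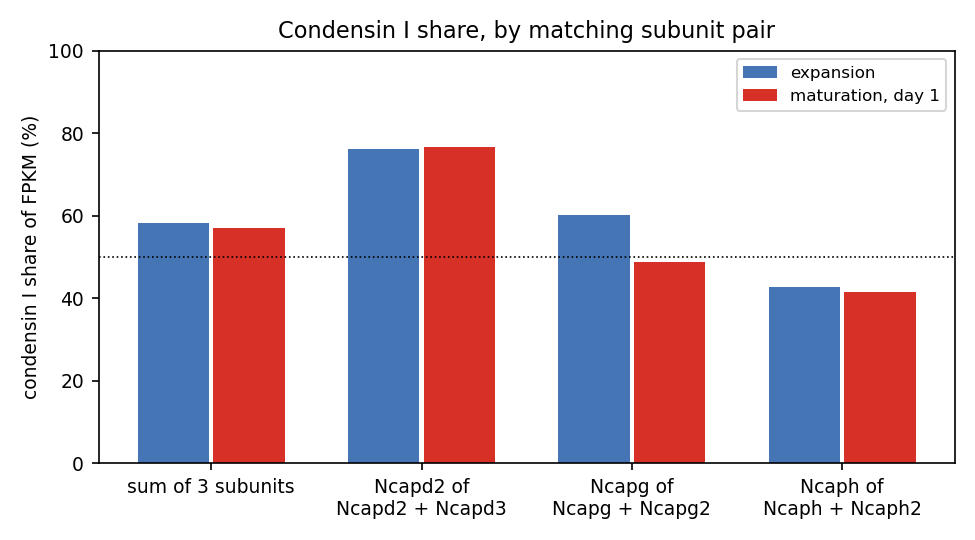
Share of condensin I (y axis, percent of the FPKM of both genes or sums) for the sum of 3 subunits and for each pair of matching subunits, in expansion (blue) and maturation (red), with a dotted line at equal levels. The Ncapg bar drops from 60.1% to 48.8% and crosses the line, and the other 3 comparisons move by 1.23 percentage points or less.

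Among the 8 condensin genes the folds of the kleisins Ncaph and Ncaph2 were the smallest, so the proportion of condensin arms to condensin kleisins was higher in maturation. Smc2 equalled 0.380 of the sum of Ncaph and Ncaph2 in expansion and 0.660 in maturation. Within the condensin genes the highest level was 3.21 times the lowest in expansion and 3.76 times in maturation. From highest to lowest, the order in expansion was Ncapd2, Smc4, Ncaph2, Ncaph, Smc2, Ncapg, Ncapd3 and Ncapg2. In maturation it was Smc4, Ncapd2, Smc2, Ncaph2, Ncaph, Ncapg2, Ncapg and Ncapd3. Smc2 moved up from the fifth to the third place of this order and Ncapg2 left the last place. With no replicate values, neighbours in either order cannot be called different.

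The cohesin arms Smc1a and Smc3 had nearly equal or lower values in maturation. Smc1a (chromosome X, 148450971 to 148496516) had 9.79 FPKM in expansion, the highest of the 10 members there, and 7.98 in maturation. Its log2 difference was -0.26, close to the median of -0.25 over all expressed genes, and 48.0% of expressed genes had a lower value. Smc3 (chromosome 19, 53674886 to 53720321) was at 6.61 and 6.88 FPKM, a log2 difference of 0.05 that exceeded 77.7% of expressed genes. Smc1a stood at 1.48 times Smc3 in expansion and at 1.16 times in maturation. Summed, the condensin arms Smc2 and Smc4 were at 14.4 FPKM against 16.4 for Smc1a and Smc3 in expansion, and at 27.3 against 14.9 in maturation. The condensin arms thus went from 0.880 to 1.84 times the cohesin arms.

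Set beside the whole table, the condensin values lay in the upper part of the distribution. The median log2 difference was 0.53 over the 8 condensin genes, 0.43 over the 10 members and -0.25 over all expressed genes. A gene was counted as 1.5-fold higher when (maturation + 1) over (expansion + 1) FPKM was at least 1.5. On this count 4 of the 10 members were at least 1.5-fold higher (Smc2, Smc4, Ncapd2 and Ncapg2), against 6.3% of all expressed genes, and 0 of 10 were at least 1.5-fold lower, against 20.4%. Ncapd3, at 1.52-fold as a plain ratio, fell below the limit once the pseudocount was added. Among the 2981 expressed genes with a mean FPKM in the members' own range, 3.56 to 12.5, the share at least 1.5-fold higher was 7.08%. At a limit of 2-fold 0 of the 10 members were higher on this scale, against 3.13% of all expressed genes, and 0 were lower, against 6.7%. This count depended on the scaling, as 3 members (Smc2, Smc4 and Ncapg2) reached 2-fold when differences were centred on the median of all expressed genes, against 4.53% of them, and 2 (Smc2 and Ncapg2) when values were rescaled without small RNA genes, against 3.63%. The folds of Smc2 and Ncapg2 reached 2.005 and 2.17 without the pseudocount. The 4 condensin genes not counted as 1.5-fold higher lay between 82.5% and 92.0% of the way up the ranked differences of expressed genes. Relative to the median of all expressed genes, 9 of the 10 members stood above it and Smc1a stood 0.02 below it on the log2 scale. When differences were centred on that median, 6 members were at least 1.5-fold higher, with Ncapg and Ncapd3 added, against 10.8% of expressed genes.

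**Figure D3:**
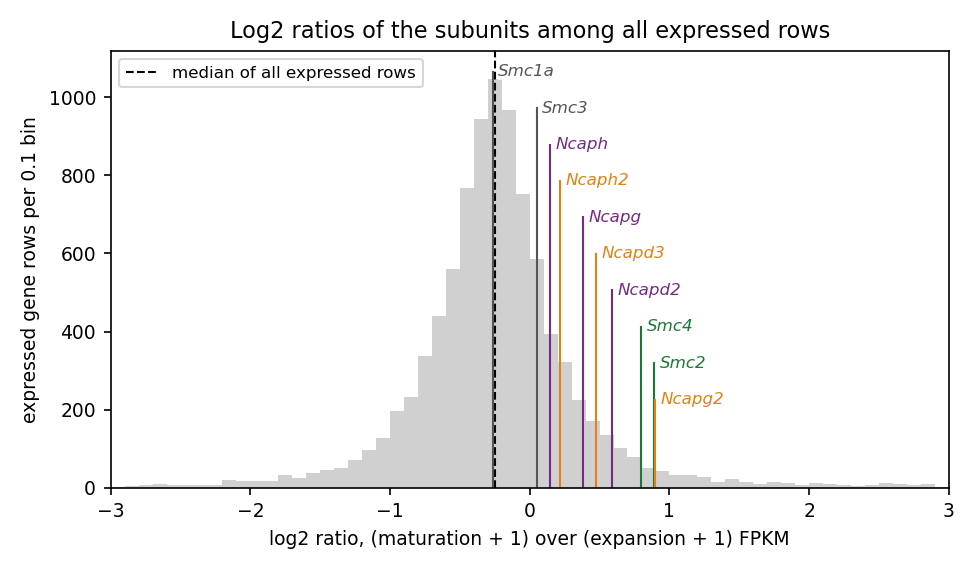
Distribution of the log2 ratio of maturation over expansion (x axis, with 1 FPKM added to both) over the expressed genes (grey bars, genes per bin of 0.1; values beyond 3 in either direction are not drawn), with a dashed line at their median of -0.25 and a coloured line for each subunit gene. Smc1a lies at the median, Smc3 just above 0, and the condensin genes between 0.14 and 0.90.

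The other genes of the cohesin ring had counts near those of all expressed genes. Of 7 further ring genes listed, 5 were expressed, with a median log2 difference of -0.25. Of these, 0 were at least 1.5-fold higher, against 6.3% of all expressed genes, and 1 was lower, against 20.4%. Rad21, the mitotic kleisin, had 11.9 FPKM in expansion against 14.8 in maturation, so it stood at 1.79 times Smc3 in expansion and 2.15 times in maturation. Stag2 and Stag1, the alternative HEAT-repeat subunits that bind RAD21, were at 5.20 and 6.59 FPKM and at 2.54 and 1.97 FPKM. Stag2 thus went from 2.05 to 3.35 times Stag1. Rec8, the meiotic kleisin, was at 3.97 and 0.511 FPKM, and was the 1 gene of the 5 related lists counted as at least 1.5-fold lower. Stag3, the meiotic partner of Rec8, was at 2.56 and 1.59 FPKM. Smc1b and Rad21l (listed as Gm14160), which also serve meiosis, were under 1 FPKM in both groups.

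Genes that load, acetylate, unload, protect or cut cohesin lay within 1.5-fold on the log2(FPKM + 1) scale, as did 73.3% of all expressed genes. Of 10 genes for loading, acetylation and release, 0 were beyond 1.5-fold in either direction, with a median log2 difference of -0.09. When centred, 1 of the 10 was at least 1.5-fold higher, against 10.8% of all expressed genes. Cdca5, which encodes sororin and keeps cohesin on replicated DNA, had 6.41 FPKM in expansion against 8.40 in maturation. Hdac8, the SMC3 deacetylase, was at 1.31 and 0.724 FPKM, and Esco1, one of the SMC3 acetyltransferases, at 2.01 and 1.45. Wapal, the release factor, had the highest level of this list at 10.01 and 9.00 FPKM. Of 4 genes for protection and cleavage, 0 were beyond 1.5-fold, with a median of 0.31. When centred, 1 of the 4 was at least 1.5-fold higher, against the same 10.8%. Espl1 (separase, the protease that cuts the kleisin) was at 2.48 and 3.41 FPKM, and Sgol1 (shugoshin, which protects centromeric cohesin) at 2.29 and 3.14. Pttg1 (securin, the inhibitor of separase) was lower, at 5.64 and 3.88 FPKM.

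The third SMC family, SMC5 and SMC6 with their NSE partners, also lay within 1.5-fold. Of 9 genes in this list, which holds Smchd1 and Rad50 as well, 0 passed that limit, against 6.3% of all expressed genes higher and 20.4% lower, and the median log2 difference was 0.04. When centred, 2 of the 9 were at least 1.5-fold higher, against 10.8% of all expressed genes. Nsmce1 had 5.85 FPKM in expansion against 7.89 in maturation, and Nsmce4a, the kleisin of that complex, had 8.43 and 11.1. Ndnl2, the NSE3 gene, was at 5.04 and 3.95 FPKM. Smc5 and Smc6 themselves, named here after their values were seen, were at 2.004 and 1.93 FPKM and at 3.02 and 2.88.

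Genes that work on mitotic chromosomes beside condensin had values closer to those of condensin. Of 14 such genes 8 were at least 1.5-fold higher, against 6.3% of all expressed genes, and 0 were lower, against 20.4%, with a median log2 difference of 0.61. When centred, 10 of the 14 were at least 1.5-fold higher, against 10.8%. Mki67, which coats mitotic chromosomes, had 23.0 FPKM in expansion against 57.3 in maturation, the highest level of this list. Birc5, the survivin subunit of the chromosomal passenger complex, was at 16.1 and 42.4 FPKM. Cdk1, the mitotic kinase that phosphorylates condensin, was at 5.43 and 10.3 FPKM. Top2a, Kif4, Akap8, Mcph1, Top2b and Nusap1 were named after their values were seen. Top2a, the topoisomerase of the mitotic chromosome axis, was at 15.0045 and 26.1 FPKM, and Kif4, a chromosome-bound kinesin that binds condensin I, at 1.86 and 3.40. The list had 4 genes with a lower FPKM in maturation. Akap8 was at 8.29 and 5.86, with the lowest log2 difference of the list, -0.44. Mcph1, an inhibitor of condensin II, was at 2.14 and 1.51. Top2b, the isoform also present in non-dividing cells, was at 9.40 and 7.15, and Nusap1 at 7.59 and 7.29. In this list 11 of 14 genes stood above the median of all expressed genes, as did 8 of 9 in the SMC5-SMC6 list, 8 of 10 in the loading list, 3 of 4 in the protection list and 2 of 5 of the other ring genes, so this tally does not set the mitotic list apart. The lists follow the roles of the genes, were chosen with earlier results of these data known, and are not independent evidence of a direction.

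**Figure D4:**
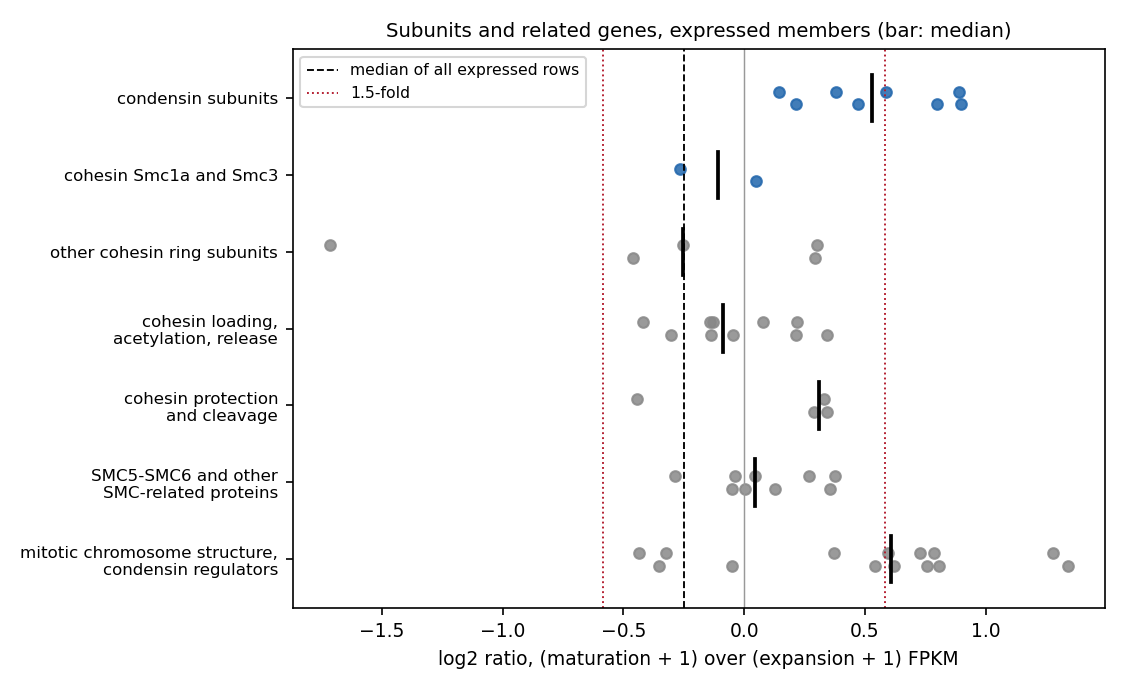
Log2 ratio of maturation over expansion (x axis, 1 FPKM added to both) for the subunit genes (blue) and the expressed genes of 5 related lists (grey), 1 point per gene, with a black bar at each median, a dashed line at the median of all expressed genes and dotted lines at 1.5-fold in either direction. The medians of the condensin subunits (0.53) and of the mitotic chromosome list (0.61) lie farthest to the right, and Rec8 is the single point left of the lower 1.5-fold line.

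The genes whose 2 values lay nearest to the mean of the 8 condensin genes were Snrnp25, Vrk1, Ap2a2, Gins4 and Kif20a, at distances of 0.024 to 0.057 on the log2(FPKM + 1) scale over the 2 groups. Snrnp25 had 5.43 FPKM in expansion against 8.53 in maturation, and Kif20a had 5.29 and 8.57. Nearest to the mean of Smc1a and Smc3 were Ubxn4, Arpc5l, Ddx23, Acss1 and Ppp1r8, at 0.026 to 0.048. Arpc5l was at 8.21 and 7.34 FPKM. Likeness over only 2 values is a weak measure.

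The labelled cell type was checked by its markers. All 9 erythroid markers passed the expression filter and had higher values in maturation, among them Hba-a1 at 1951 and 8370 FPKM and Gata1 at 18.8 and 37.4. Slc4a1 (0.0744 and 18.0 FPKM) and Alas2 (0.975 and 7.89) passed the filter only through the maturation group. The summed FPKM of markers of other cells was 11.8 in expansion and 0.483 in maturation for 6 mast cell and basophil genes. Only 2 of these were expressed, Ms4a2 (7.07 and 0.0903 FPKM) and Hdc (4.47 and 0.0945). The sum was 22.8 and 4.13 for 6 megakaryocyte and platelet genes. Of these 4 were expressed, and 1 of the 4, Gp9, was higher in maturation, at 0.756 and 1.84 FPKM. For 6 macrophage genes the sum was 1.34 and 0.610, and only Cd68 was expressed (1.18 and 0.539). It was 10.9 and 0.843 for 4 lymphocyte genes, of which Ptprcap made up 10.9 and 0.790, and 0.0156 and 0.0357 for 5 granulocyte genes. Mcpt8 and S100a8 were listed at 0 in both groups. These sums were lower in maturation for 4 of the 5 lists while the condensin genes were higher, and their part in the condensin differences was not tested.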

How the data were processed

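Qiagen reagents were used to extract the RNA and a Nextflex kit to build the libraries, per the labels' protocols. The authors deposited 1 FPKM value per gene and group, per the file headers. The submitters' processing notes name Cuffdiff 2.0.2 and mm9. The sources used here do not give the aligner, the annotation or whether the duplicates were pooled, and no counts were used, so the depth is unknown. Loci are on mm9, counted from 1 (the table counts starts from 0, as the spans of 182 of 182 microRNA genes equal to their RefSeq lengths show). Promoter sites are on GRCm38.p6, and no coordinate was converted.

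With Python 3.11.15 and pandas 2.3.3, log2 ratios of maturation over expansion used a pseudocount of 1 FPKM, which understates differences of low genes, over genes with at least 1 FPKM in at least 1 group. Folds are plain ratios of FPKM. With 1 value per group no test was run, and genes were counted past a fold of 1.5 or 2. Small RNA genes, picked by symbol, took up 17.6% of all FPKM in expansion and 25.5% in maturation. Of 80 entries in the related and marker lists, 77 matched by symbol and 3 by a RefSeq synonym. The text names all members, the 3 genes with the largest absolute log2 ratio and the 1 with the highest FPKM of each related list, other ring subunits, some markers, and genes marked as chosen afterwards. The members and lists were chosen with earlier results of these data known. The ratio and counting steps were tested on simulated data. Alternatives were pseudocounts of 0.1 and 5, filters of none and 5 FPKM, centring, rescaling without small RNA genes, and a 2-fold limit.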

Additional observations from a re-analysis of the deposited data

How the results depend on the processing

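The direction of all 10 members was the same in all 40 values under the pseudocounts, the centring and the rescaling, but most of these could not differ. A pseudocount cannot change the sign of a difference, and the centring and the rescaling both raised every ratio. Only Smc1a, the member lower in maturation, could therefore have changed direction, when centred or rescaled. Smc1a stayed lower, within 0.02 of 0 on the log2 scale when centred and at -0.15 when rescaled. The median log2 difference of the 10 members, 0.43 as reported, was 0.52 with a pseudocount of 0.1 FPKM, 0.24 with 5 FPKM, 0.67 when centred on the median of all expressed genes and 0.53 when rescaled without small RNA genes, which multiplied all maturation values by 1.09. The number at least 1.5-fold higher, 4 as reported, was 5, 2, 6 and 4 under the same settings, and 0 at a limit of 2-fold. In alternatives added after seeing the data, the number at least 2-fold higher was 1 with a pseudocount of 0.1, 0 with 5, 3 when centred and 2 when rescaled. The share of all expressed genes at least 2-fold higher was 4.03%, 1.79%, 4.53% and 3.63% in the same order. A larger pseudocount shrinks every ratio of low genes by construction, and the share of all expressed genes at least 1.5-fold higher was 7.96%, 3.61%, 10.8% and 7.84% under those 4 settings. Without a filter that share was 2.31% and with a minimum of 5 FPKM 9.89%, and the median of all genes kept was -0.0024 and -0.21. The background of genes in the members' range of levels was chosen after seeing the data. The condensin I share in maturation, 57.0% from the sums, was 76.6% from Ncapd2 and Ncapd3, 48.8% from Ncapg and Ncapg2 and 41.6% from Ncaph and Ncaph2. No paired analysis was possible because the table holds 1 value per gene and group, and no replicate could be left out for the same reason.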
